A study of Mus musculus with 18 samples.

Results

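Pericytes wrap the outside of capillaries and small venules and share the vessel's basement membrane with the endothelium. The 8 genes described here, Pdgfrb, Notch3, Cspg4, Mcam, Rgs5, Kcnj8, Abcc9 and Higd1b, are a literature list of genes that mark these cells, matched by symbol to 1 Ensembl gene each among the 54532 genes of the count table. Bulk RNA sequencing covered whole jejunum of C57BL/6 mice aged 8 to 12 weeks. There were 7 FLASH libraries, from mice given a single 15 Gy dose to the whole abdomen at an ultra-high rate, 5 CONV libraries, from mice given the same dose at a conventional rate, and 6 control libraries, from mice that were not irradiated. Irradiated tissue was taken 16 h after the dose. No genotype other than the C57BL/6 background is given for any group, and libraries carry the numbers of their labels. Library totals were 23079695 to 30196611 estimated counts in FLASH, 19936095 to 26990095 in CONV and 24342285 to 27765544 in control. Nothing in the labels says that each library is a separate mouse, so p-values here measure the spread between libraries. The study's title concerns the vasculature, and the 3 comparisons ask how genes of the vessel wall's outer cells stood after each dose rate.

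Pericytes are recruited when endothelial cells release PDGF-B, which acts on the receptor tyrosine kinase encoded by Pdgfrb. Notch3 encodes a receptor for Notch ligands on neighbouring vessel cells and maintains mural identity, the term that covers pericytes and vascular smooth muscle. Cspg4 encodes the proteoglycan NG2 and Mcam the adhesion molecule CD146, both on the cell surface. Rgs5 encodes a protein that shortens signalling of G protein-coupled receptors. Kcnj8 (pore, Kir6.1) and Abcc9 (regulatory sulfonylurea receptor, SUR2) together form the ATP-sensitive potassium channel of vascular mural cells, whose opening relaxes them. Higd1b encodes a small mitochondrial membrane protein of the hypoxia-inducible domain family. None of these genes is restricted to pericytes. Visceral smooth muscle can also express the channel genes and Rgs5, fibroblasts Pdgfrb, and endothelium Mcam.

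RefSeq start regions (GRCm38.p6) were given for 6 of the 8 genes. The 250 bases before the start are shown for the channel pair, for Rgs5, whose level followed Kcnj8 from library to library, and for Cspg4, which passed the test after both dose rates. They are printed 5′ to 3′ on the gene's strand, at chr1:169655251-169655500 (plus), chr6:142571615-142571864 (minus), chr6:142702275-142702524 (minus) and chr9:56864854-56865103 (plus). Capitals mark TGGGAA, the core read by the Notch effector RBPJ, and GGGCGG, a GC box, each searched on both strands. The RefSeq starts of Abcc9 and Cspg4 lie inside the gene limits given further below. The last bases of their windows therefore fall within those limits.
Rgs5: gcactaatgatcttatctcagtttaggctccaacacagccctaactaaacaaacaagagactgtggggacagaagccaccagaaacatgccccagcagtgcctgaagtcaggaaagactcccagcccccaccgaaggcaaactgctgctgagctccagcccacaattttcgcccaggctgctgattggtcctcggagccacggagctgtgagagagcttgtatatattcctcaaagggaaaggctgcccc
Kcnj8: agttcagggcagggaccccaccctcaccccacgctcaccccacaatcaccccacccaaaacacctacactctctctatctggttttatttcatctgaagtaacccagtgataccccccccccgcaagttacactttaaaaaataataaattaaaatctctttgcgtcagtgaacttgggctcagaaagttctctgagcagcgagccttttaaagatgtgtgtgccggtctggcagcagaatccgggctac
Abcc9: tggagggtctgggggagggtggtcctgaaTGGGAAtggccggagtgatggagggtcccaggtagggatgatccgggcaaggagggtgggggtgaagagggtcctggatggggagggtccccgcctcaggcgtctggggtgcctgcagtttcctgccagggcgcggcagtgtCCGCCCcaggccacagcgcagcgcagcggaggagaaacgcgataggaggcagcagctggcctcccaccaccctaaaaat
Cspg4: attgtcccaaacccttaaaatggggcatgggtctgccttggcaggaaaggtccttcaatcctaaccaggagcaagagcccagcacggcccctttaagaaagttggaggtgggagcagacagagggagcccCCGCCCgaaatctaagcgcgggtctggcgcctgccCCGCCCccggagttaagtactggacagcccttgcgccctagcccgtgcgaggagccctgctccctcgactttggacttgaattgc
GC content of these windows was 53.6% for Rgs5, 49.2% for Kcnj8, 66.8% for Abcc9 and 60.4% for Cspg4, against a median of 52.4% over 32851 windows of the same length. GGGCGG occurred once in Abcc9 and at 2 places in Cspg4, at 4 in Notch3 and at 5 in Mcam, and in neither Rgs5 nor Kcnj8, where 32.7% of all windows held it. TGGGAA occurred in Abcc9 alone of the 6 (first base at -221 and last at -216 from the start), and 21.6% of all windows held it. The E box core CANNTG, searched without being marked, occurred once in Kcnj8, in Abcc9 and in Mcam, and in 66.2% of all windows. The CArG box, which serum response factor binds in smooth muscle genes, was in none of the 6 windows and in 1.47% of all windows. No match overlaps another.

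Levels are in CPM, the estimated counts of a gene scaled to a fixed library size after TMM normalisation. Smooth muscle, endothelial, fibroblast, neural and epithelial markers were present in every group, and none of the smooth muscle, endothelial, fibroblast or epithelial genes was at 0 in any library. Composition varied between libraries within groups. A slope of log2 CPM on log2 transcript length over 8942 protein-coding genes ran from -0.34 to 0.27 in FLASH, from -0.43 to 0.05 in CONV and from -0.41 to 0.32 in control, and was most negative in FLASH 1, CONV 6 and control 6. CONV 6 had the lowest CONV level of 6 of the 8 members, control 6 the lowest control level of 5, and FLASH 1 the lowest FLASH level of 4. For Rgs5 and Kcnj8, FLASH 1 had the highest FLASH level. CONV 6 also had the least smooth muscle RNA, with a summed level of 344 CPM over 13 smooth muscle genes against 1250 to 1850 in the other CONV libraries. Member results below are therefore also given without these 3 libraries where that matters. Genes of the other lists were read with all libraries only.

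Per kilobase of principal transcript, Rgs5 was the most abundant member in every group, at 31.7 ± 11.9 CPM per kb in FLASH, 44.8 ± 19.8 in CONV and 55.0 ± 16.5 in control (SD, n = 7, 5 and 6). Mcam came next in control at 7.78 ± 3.61, followed by Kcnj8 at 4.42 ± 1.31, Pdgfrb at 3.8 ± 2.31 and Abcc9 at 3.35 ± 1.5 CPM per kb. Each of these 4 differed from the next by less than the larger of their SDs. Cspg4 (0.771 ± 0.408) and Notch3 (0.734 ± 0.717) were lower and did not differ beyond their spread, and Higd1b was lowest at 0.139 ± 0.118. Rgs5 alone made up 57.6 to 84% of the members' summed CPM in a library, so a sum over the list is mainly a value of Rgs5.

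**Figure D1:**
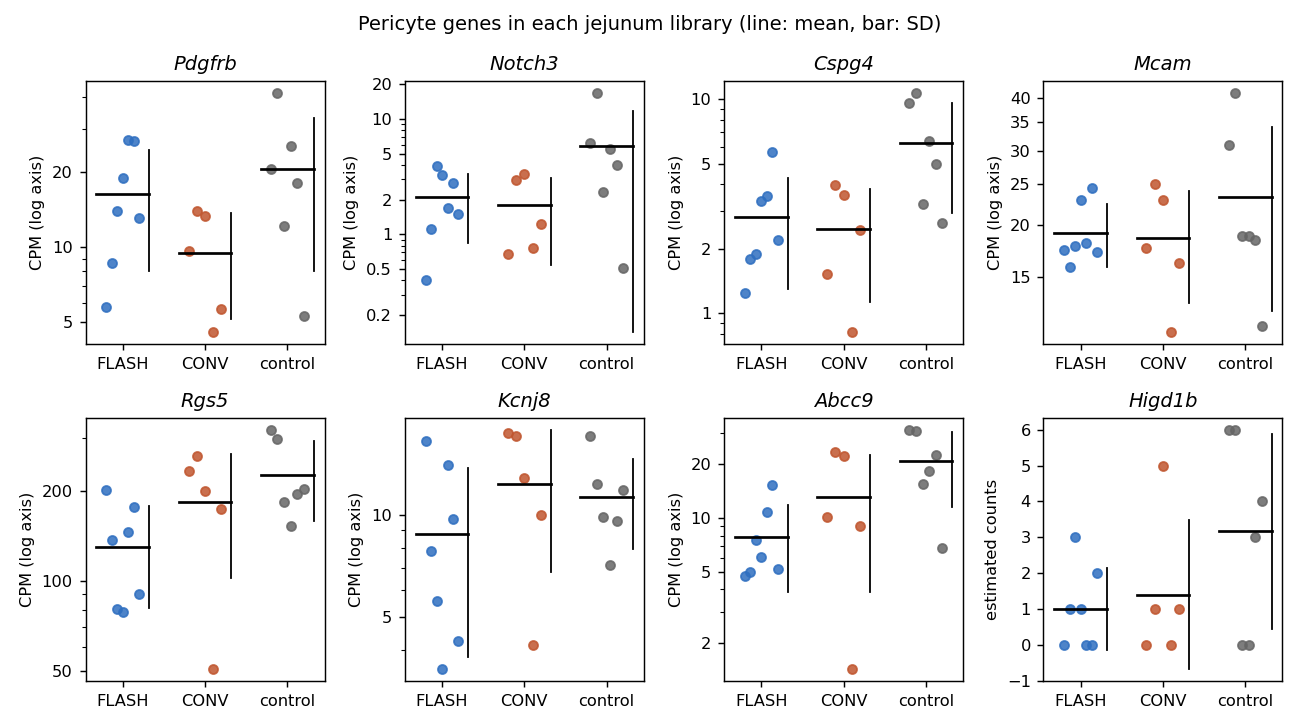
Level of each of the 8 genes in every library, in CPM on log axes (Higd1b: estimated counts on a linear axis), for 7 FLASH, 5 CONV and 6 control libraries. Points are libraries, the horizontal line is the group mean and the vertical bar 1 SD on either side. The groups overlap in every panel, and the lowest CONV point of Rgs5 (50.7 CPM), Kcnj8 (4.15) and Abcc9 (1.44) is CONV 6.

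The receptor gene Pdgfrb ran from 5.78 to 27 CPM in FLASH libraries, with a median of 14. It was at 9.63, 14, 13.4, 4.56 and 5.68 CPM in CONV libraries 2, 3, 5, 6 and 7, and ran from 5.29 to 41.7 CPM in control libraries with a median of 19.3. All 5 CONV libraries lay below the control median, while 3 of the 7 FLASH libraries lay above every CONV library. The other receptor gene, Notch3, was low everywhere, from 0.401 to 3.92 CPM in FLASH (median 1.7), from 0.681 to 3.35 in CONV (median 1.24) and from 0.511 to 16.8 in control (median 4.72). Every FLASH and every CONV library lay below the control median, yet the control group itself spanned 32.9-fold.

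The surface proteoglycan gene Cspg4 ran from 1.24 to 5.65 CPM in FLASH (median 2.19). It was at 1.52, 3.98, 3.57, 0.813 and 2.45 CPM in CONV libraries 2, 3, 5, 6 and 7, and ran from 2.63 to 10.7 CPM in control (median 5.69). Below the lowest control were 4 of 7 FLASH and 3 of 5 CONV libraries, and the ranges still overlapped. Mcam ran from 15.9 to 24.5 CPM in FLASH (median 17.8), 11.1 to 25.0 in CONV (median 17.6) and 11.5 to 41.1 in control (median 18.8). Its coefficient of variation, 17% in FLASH and 29.8% in CONV, was the lowest of the 7 tested members in both, while in control, at 46.4%, it was above those of Kcnj8 (29.6%), Rgs5 (29.9%) and Abcc9 (44.7%).

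Rgs5 was at 201, 137, 80.3, 78.8, 145, 176 and 90.2 CPM in FLASH libraries 1, 2, 4, 5, 6, 7 and 9. In CONV libraries 2, 3, 5, 6 and 7 it was at 232, 261, 200, 50.7 and 174 CPM, and in control libraries 1 to 6 at 320, 298, 184, 152, 195 and 203 CPM. Below the lowest control stood 5 of 7 FLASH libraries, and 1 of 5 CONV libraries, CONV 6.

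The channel pore gene Kcnj8 ran from 3.53 to 16.5 CPM in FLASH (median 7.81), from 4.15 to 17.4 in CONV (median 12.8) and from 7.15 to 17 in control (median 10.8). FLASH libraries 4, 5 and 9, which were lowest for Rgs5, were also the 3 lowest for Kcnj8, at 5.59, 3.53 and 4.25 CPM. Its partner Abcc9 was at 4.74, 5.04, 7.53, 6.08, 10.9, 15.4 and 5.18 CPM in FLASH libraries 1, 2, 4, 5, 6, 7 and 9. CONV libraries 2, 3, 5, 6 and 7 had 10.1, 23.3, 22.2, 1.44 and 9.01 CPM of Abcc9, and control libraries ran from 6.86 (control 6) to 31.2 with a median of 20.4. All 7 FLASH libraries lay below the control median, and 4 of them below control 6, the lowest control.

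Higd1b was close to the detection limit. Its counts summed to 7 over the 7 FLASH libraries, 7 over the 5 CONV libraries and 19 over the 6 control libraries. It was at 0 in 7 libraries, where a floor of 3 counts allows a level of up to 0.107 to 0.157 CPM. It did not pass the filter on low counts and was not tested, and no difference was detectable at this depth. The floor covers counting error only. The other 7 members all passed that filter.

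In mm10, Rgs5 lies on chromosome 1 (169655501 to 169695813, plus strand), Notch3 on chromosome 17 (32120820 to 32166852, minus strand) and Higd1b on chromosome 11 (102835849 to 102838040, plus strand). Pdgfrb lies on chromosome 18 (61045150 to 61085061, plus strand). Cspg4 (56865033 to 56899870) and Mcam (44134469 to 44142727) are both on the plus strand of chromosome 9. Kcnj8 (142564837 to 142571614) and Abcc9 (142587862 to 142702315) are neighbours on the minus strand of chromosome 6, 16247 bases apart. The principal transcripts differ in length, from 735 bases for Higd1b to 8016 for Notch3 and 8121 for Cspg4, with 2548 for Kcnj8 and 6213 for Abcc9. Antisense genes overlap Abcc9, Notch3 and Mcam. Their counts came to 0.0, 0.238 and 3.3% of those of the member they overlap, and how strand was used in counting is not given in the sources used here.

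CONV against control asked how these genes stood after 15 Gy at the conventional rate. Cspg4 was the 1 member that fell, by 1.34 ± 0.46 (log2 fold change ± SE, edgeR quasi-likelihood test with Benjamini-Hochberg adjustment over 16257 genes, adjusted p = 0.0432), to 2.47 ± 1.34 CPM in CONV against 6.26 ± 3.31 CPM in control (SD, n = 5 and 6). Of all genes tested 22.2% passed, 12.0% as lower and 10.2% as higher, so 1 of 7 members (14.3%) is near the share that passed as lower. Notch3 had the lowest estimate, -1.70 ± 0.68 (adjusted p = 0.0754), and Pdgfrb -1.12 ± 0.47 (adjusted p = 0.0869), with 9.47 ± 4.33 CPM in CONV against 20.6 ± 12.5 in control. Neither passed in edgeR's test. Abcc9 (-0.66 ± 0.51), Mcam (-0.32 ± 0.27), Rgs5 (-0.30 ± 0.34) and Kcnj8 (0.13 ± 0.39) had edgeR adjusted p from 0.340 to 0.824. Below 0 were 6 of the 7 estimates and 52.4% of those of all genes, with medians of -0.66 and -0.04.

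The Cspg4 call in CONV rested on the fit. With an offset for each library's trend on transcript length and GC content its log2 fold change was -0.67 and the edgeR adjusted p 0.0541, and without control 6, CONV 6 and FLASH 1 together it was -1.24 (adjusted p = 0.0254). Leaving out single libraries ended the call without control 1 (-1.18), control 2 (-1.12), control 4 (-1.33), control 5 (-1.39), CONV 2 (-1.21), CONV 6 (-1.11) or CONV 7 (-1.33), and without FLASH 5, FLASH 6 or FLASH 9 (-1.34 each), with edgeR adjusted p of 0.0501 to 0.116. The call also ended with no filter but 1 count (edgeR adjusted p = 0.0596) and with only the 2 groups compared (0.0568). Notch3 and Pdgfrb passed without control 6, at -1.94 (edgeR adjusted p = 0.0168) and -1.32 (adjusted p = 0.0206). Without control 6, CONV 6 and FLASH 1 they also passed, Notch3 at -1.72 (edgeR adjusted p = 0.0272) and Pdgfrb at -1.11 (adjusted p = 0.0335), and DESeq2 called Notch3 (adjusted p = 0.0316). With the length and GC offset they stood at -0.89 and -0.60 and did not pass (adjusted p = 0.134 and 0.147). Notch3 was at -1.04 without control 2.

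Markers of other wall cells were read in the same comparison, where 22.2% of all genes passed. Of 13 smooth muscle genes 6 fell, 0 rose and 7 did not pass (46.2% passed), with a median log2 fold change of -1.06. Acta2, smooth muscle actin, fell by 1.43 ± 0.40 (edgeR adjusted p = 0.0171) and Myh11, smooth muscle myosin heavy chain, fell too (-2.01 ± 0.67, adjusted p = 0.0399), to 100 ± 74.8 CPM in CONV against 403 ± 261 CPM in control. The summed smooth muscle level was 344 to 1850 CPM in CONV and 1780 to 5180 CPM in control, with no marker at 0. Of 12 fibroblast genes 4 fell and 8 did not pass (33.3% passed). Of 15 endothelial genes 3 fell, 0 rose and 12 did not pass (20% passed), and 14 estimates were below 0, with a median of -0.89. Of all genes 12.0% were called lower. The part of these cells in the Cspg4 value was not tested. In bulk tissue, fewer cells of a type and less RNA per cell cannot be told apart.

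FLASH against control asked the same at the ultra-high rate. Abcc9 fell by 1.41 ± 0.46 on the log2 scale (edgeR adjusted p = 0.0229), to 7.83 ± 3.95 CPM in FLASH against 20.8 ± 9.30 CPM in control (SD, n = 7 and 6). Cspg4 fell by 1.16 ± 0.41 (adjusted p = 0.0320), to 2.8 ± 1.5 CPM in FLASH against 6.26 ± 3.31 in control. Rgs5 was at -0.79 ± 0.31 and just missed the threshold (edgeR adjusted p = 0.0502), with 130 ± 48.6 CPM in FLASH against 225 ± 67.4 CPM in control. Notch3 (-1.5 ± 0.60, edgeR adjusted p = 0.0574), Kcnj8 (-0.36 ± 0.36), Pdgfrb (-0.33 ± 0.42) and Mcam (-0.28 ± 0.25) did not pass either. The 2 of 7 members that passed (28.6%) compare with 37.7% of all genes tested, 21.0% that passed as lower and 16.7% as higher. All 7 estimates were below 0, as were 54.1% over all genes, and their median was -0.79 against -0.07.

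The length and GC offset left the Abcc9 and Cspg4 values at -1.25 and -0.92 (edgeR adjusted p = 0.00702 and 0.00300) and brought Notch3 past the threshold (-1.10, adjusted p = 0.0272). Without control 6, CONV 6 and FLASH 1, 4 members passed, Abcc9 at -1.45, Cspg4 at -1.14, Rgs5 at -0.91 and Notch3 at -1.5 (edgeR adjusted p = 0.00195 to 0.0184). For Rgs5, FLASH 1 was the highest FLASH library (201 CPM). Abcc9 no longer passed without control 1 (-1.22) or control 2 (-1.23), nor Cspg4 without control 1 (-0.95), control 2 (-0.90), FLASH 1 (-1.03), FLASH 2 (-1.07), FLASH 4 (-1.03) or FLASH 9 (-1.10). With limma-trend on the authors' log2 values neither passed (Abcc9 -1.35, adjusted p = 0.0573, and Cspg4 -1.10, adjusted p = 0.0516), and with no filter but 1 count Abcc9 did not (edgeR adjusted p = 0.0609). DESeq2 called Abcc9, Cspg4 and Notch3 (adjusted p = 0.00966, 0.0196 and 0.0342). Rgs5 passed without control 4 (-0.89), control 6 (-0.82), CONV 6 (-0.79), FLASH 1 (-0.93) or FLASH 7 (-0.88), and Notch3 without control 3 (-1.66), control 6 (-1.74) or FLASH 4 (-1.67). Without control 2, Notch3 was at -0.79 and Pdgfrb at 0.035.

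All 13 smooth muscle genes fell in FLASH against control, with a median of -1.42, where 21.0% of all genes were called lower. Mylk, the myosin light chain kinase gene, fell by 1.65 ± 0.27 (edgeR adjusted p = 0.000133), and Smtn and Synpo2 fell as well (-1.52 ± 0.33 and -1.75 ± 0.42). The summed smooth muscle level was 714 to 1710 CPM in FLASH and 1780 to 5180 CPM in control, 2 ranges that do not overlap. The mean log2 CPM of the same list did overlap, at 4.98 to 6.26 in FLASH and 5.91 to 7.83 in control. FLASH libraries 4 and 9 had the lowest sums (714 and 760 CPM), and both were among the 3 lowest for Rgs5 and Kcnj8. Of 15 endothelial markers 1 was called lower, Tek, the angiopoietin receptor gene (-1.14 ± 0.44, edgeR adjusted p = 0.0486). Pecam1 and Cdh5 stood at 34.7 ± 9.85 and 17.6 ± 8.34 CPM in FLASH against 42.4 ± 36.5 and 23.8 ± 24.5 in control. Whether smooth muscle accounts for the Abcc9 and Cspg4 values was not tested.

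**Figure D2:**
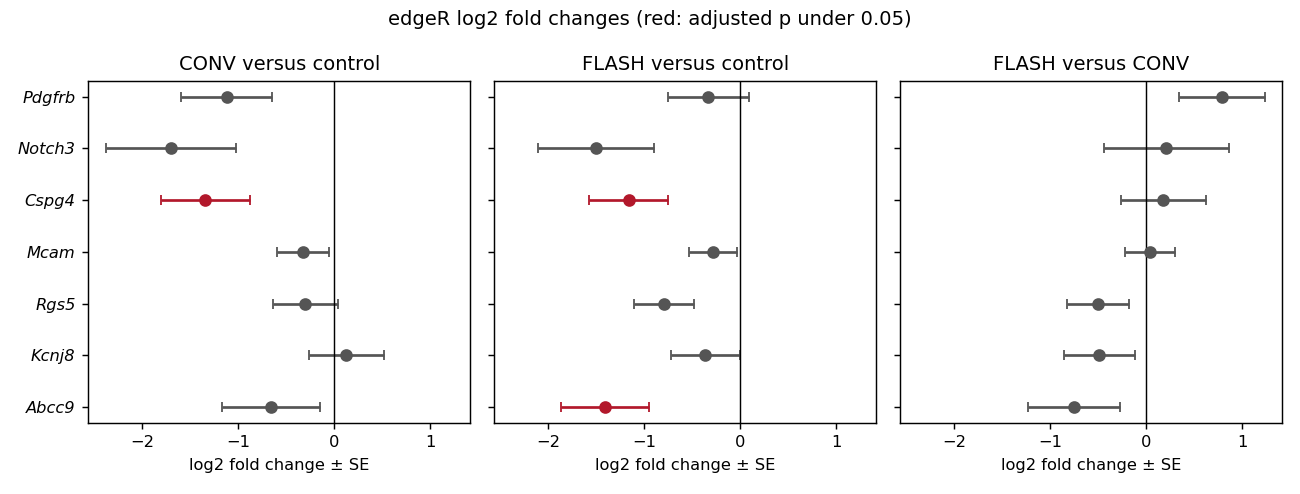
Log2 fold changes of the 7 tested members in the 3 comparisons, as points with 1 SE on either side, red where edgeR's adjusted p is under 0.05. Cspg4 is red in CONV and in FLASH against control (-1.34 and -1.16), Abcc9 in FLASH against control (-1.41), and no member is red in FLASH against CONV.

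FLASH against CONV is the direct test of a difference between the dose rates, and it also asks whether both responses to the shared controls differ. No member passed, while 19.8% of all genes did (9.91% as lower and 9.88% as higher), and none of the 7 had an unadjusted p under 0.05 (0.0964 to 0.879). Below 0 were 3 of the 7 estimates and 51.1% of those of all genes. DESeq2 and limma-trend also called 0 members. Pdgfrb had a log2 fold change of 0.79 ± 0.45 (95% interval -0.17 to 1.75, from the SE and 15 degrees of freedom, edgeR adjusted p = 0.228), with 16.4 ± 8.35 CPM in FLASH against 9.47 ± 4.33 in CONV. Abcc9 stood at -0.75 ± 0.48 (interval -1.78 to 0.28), Rgs5 at -0.50 ± 0.32 (-1.19 to 0.19) and Kcnj8 at -0.49 ± 0.37 (-1.28 to 0.31). Notch3 (0.21, -1.17 to 1.58), Cspg4 (0.18, -0.75 to 1.11) and Mcam (0.04, -0.51 to 0.59) lay nearer to 0, and these intervals, apart from that of Mcam, include 2-fold differences in at least 1 direction. Without control 6, CONV 6 and FLASH 1, Rgs5 passed as lower in FLASH, at -0.87 (edgeR adjusted p = 0.0198), and Kcnj8 and Abcc9 both stood at -0.93 (adjusted p = 0.0505 and 0.0554). FLASH 1 was the highest FLASH library for Rgs5 (201 CPM) and Kcnj8 (16.5 CPM). CONV 6 was the lowest CONV library for both (50.7 and 4.15 CPM), so leaving these out widens the gap. The length slope that set these libraries apart had r = 0.20 with Rgs5 and 0.01 with Kcnj8. Of the 13 smooth muscle genes 0 passed between FLASH and CONV by edgeR with all libraries. None of the 24 pairs of gene and comparison, Higd1b included, had groups that do not overlap, while over all genes tested 4.95, 6.86 and 4.45% were lower with no overlap in CONV against control, FLASH against control and FLASH against CONV, and 5.46, 6.93 and 4.08% were higher with no overlap.

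The members varied together to different degrees. Over the 18 libraries, after each group's mean log2 CPM was subtracted, Rgs5 and Kcnj8 followed each other (Pearson r = 0.91, Spearman rho = 0.93, r = 0.88 without the 2 libraries farthest from the median of Rgs5). Rgs5 also had r = 0.71 with Abcc9, or 0.45 without those 2. Cspg4, Pdgfrb, Notch3, Mcam and Abcc9 followed one another, with r from 0.67 (Abcc9 and Notch3) to 0.87 (Pdgfrb and Cspg4, and Cspg4 and Abcc9). Many other genes followed a member more closely. Ranked by r among all tested genes, Kcnj8 stood at 42 for Rgs5. For pairs within this set, each ranked in 1 direction, ranks ran from 260 (Abcc9 for Cspg4) to 2593 (Notch3 for Abcc9). Outside that set Kcnj8 had r = 0.34 with Mcam, 0.27 with Cspg4, 0.13 with Pdgfrb and -0.11 with Notch3, and Rgs5 had r = 0.56 with Mcam, 0.50 with Cspg4, 0.28 with Pdgfrb and 0.09 with Notch3. Without the 2 libraries farthest from the median of Pdgfrb, r with Pdgfrb was 0.49 for Kcnj8 and 0.55 for Rgs5. For Cspg4, Abcc9, Notch3 and Mcam it was then 0.74 to 0.84, so the separation of Pdgfrb from this pair was smaller but remained. Treated the same way, Notch3 and Mcam had r = 0.62 (by the median of Notch3). Rgs5 and Mcam had r = 0.55 (by the median of Rgs5), so the set was less separate there. Spearman rho with Pdgfrb over all 18 libraries was 0.27 for Kcnj8 and 0.28 for Rgs5. The channel partners Kcnj8 and Abcc9 had r = 0.55, or 0.29 without the 2 libraries farthest from the median of Kcnj8. These are descriptions over libraries that share tissue composition and a slope on transcript length. The length slope of the library had r = 0.93 with Notch3, 0.91 with Pdgfrb, 0.86 with Cspg4, 0.80 with Abcc9 and 0.75 with Mcam. It had r = 0.20 with Rgs5 and 0.01 with Kcnj8. The mean log2 CPM of the smooth muscle list had r = 0.94 with Abcc9, 0.85 with Rgs5, 0.80 with Cspg4 and 0.50 with Notch3. That of the endothelial list had r = 0.90 with Mcam, 0.86 with Notch3, 0.78 with Cspg4 and with Pdgfrb, and 0.05 with Kcnj8. The fibroblast list had r = 0.93 with Mcam, 0.91 with Cspg4 and 0.90 with Abcc9, for Mcam and Cspg4 the highest among the marker lists. The list of enteric neuron and glia genes had r = 0.94 with Rgs5, 0.84 with Kcnj8, 0.81 with Abcc9 and 0.71 with Mcam. With Cspg4, Pdgfrb and Notch3 that list had r = 0.63, 0.49 and 0.30. Of its 8 tested genes edgeR called 0 in CONV against control, where 22.2% of all genes passed. It called 1 in FLASH against control (12.5%, against 37.7% of all genes), Gfap, the glial filament gene, as higher (1.43 ± 0.52, edgeR adjusted p = 0.0364). In that comparison 6 of the 8 estimates were below 0, with a median of -0.5.

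**Figure D3:**
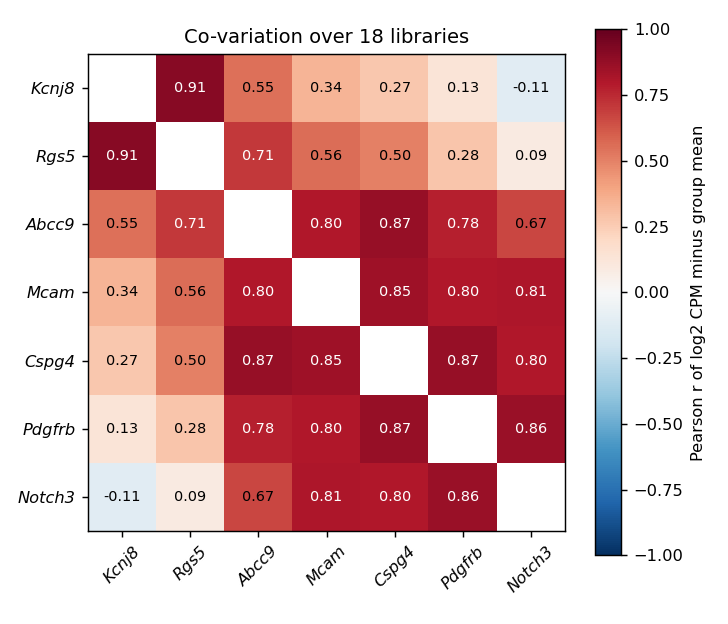
Pearson r between members over 18 libraries, computed on log2 CPM minus the group mean, with red for positive and blue for negative values. Rgs5 and Kcnj8 have r = 0.91, and Abcc9, Mcam, Cspg4, Pdgfrb and Notch3 have r of 0.67 to 0.87 with one another. Rgs5 and Abcc9, at 0.71, lie inside that range.

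Among all tested genes, the 3 whose within-group deviations were most like each member's over the 18 libraries were named by the same measure. For Rgs5 these were Nsg2 (r = 0.99), Lum and Ldhb (0.98 each), and for Kcnj8 they were Kcne4 (0.96), Hspb8 (0.94) and Pcp4 (0.93). Abcc9 was nearest to Mrvi1 (0.99), Myh11 and Atp2b4 (0.98 each), and Notch3 to Flt4, Mtr (0.98 each) and Ckap5 (0.97). Pdgfrb was nearest to C2cd2, Tram2 and Taok2 (0.96 each), Cspg4 to Mapk10 (0.95), Pkd2 and Dysf (0.94 each), and Mcam to Msn, Fscn1 and Cav1 (0.95 each). Spearman rho for these 21 matches lay between 0.76 and 0.98. No member was among the 3 nearest of another member.

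Both channel subunits are needed in 1 complex, and their RNA ratio varied between libraries. Abcc9 over Kcnj8, as a ratio of CPM, was 0.287, 0.645, 1.35, 1.72, 0.780, 1.57 and 1.22 in FLASH libraries 1, 2, 4, 5, 6, 7 and 9. It was 0.577, 1.37, 1.72, 0.348 and 0.901 in CONV libraries 2, 3, 5, 6 and 7, and 1.84, 2.49, 1.59, 2.56, 2.34 and 0.582 in control libraries 1 to 6. The lowest ratio of each group belonged to FLASH 1, CONV 6 and control 6, the libraries with the most negative length slopes. The other channel genes, Kcnj11 (Kir6.2) and Abcc8 (SUR1), which pair in endocrine cells, were at 0.488 ± 0.219 and 1.12 ± 0.508 CPM in FLASH, 0.398 ± 0.241 and 0.302 ± 0.188 in CONV, and 0.336 ± 0.167 and 0.628 ± 0.315 in control. Abcc8 was higher in FLASH than in CONV by 1.84 ± 0.47 (edgeR adjusted p = 0.0114), and Kcnj11 passed in no comparison. The lowest CONV value of Abcc8, 0.0524 CPM, was close to the detection limit.

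**Figure D4:**
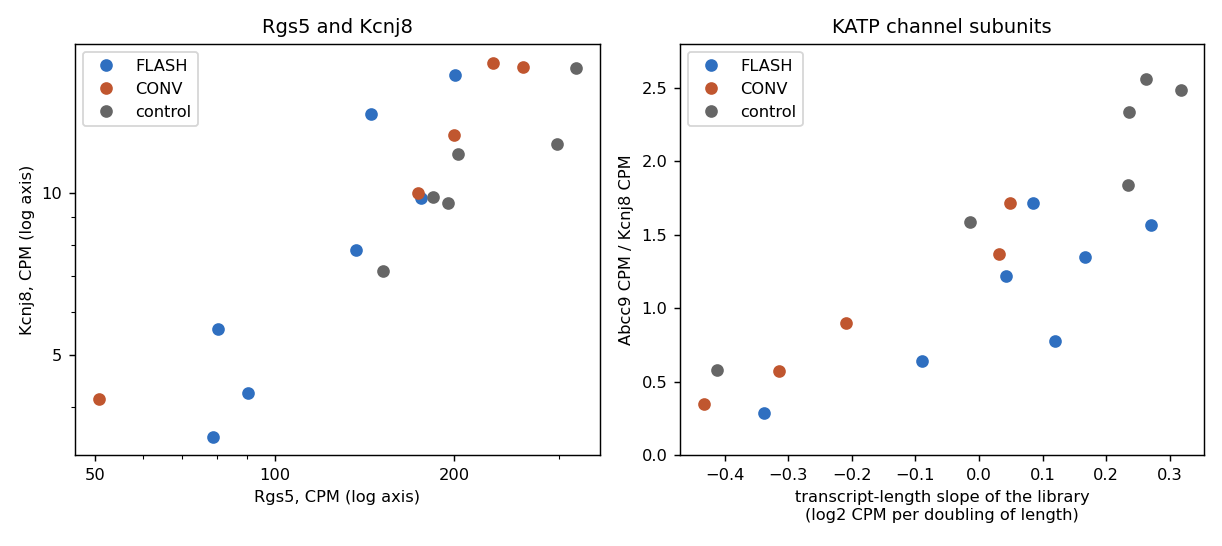
Left, Rgs5 against Kcnj8 in CPM on log axes, 1 point per library. Right, the ratio of Abcc9 to Kcnj8 CPM against the library's slope of log2 CPM on log2 transcript length. In the left plot the libraries lie along 1 rising band, from 50.7 CPM of Rgs5 with 4.15 of Kcnj8 in CONV 6 upward, and in the right plot the lowest ratios, 0.287 in FLASH 1 and 0.348 in CONV 6, lie at the left end.

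Other genes reported in mural cells were read from a list of 16, of which 15 were tested and Tbx18 was not. In CONV against control 2 fell, 0 rose and 13 did not pass (13.3% passed, against 22.2% of all genes with 12.0% as lower, median -0.55). They were Heyl, a Notch-induced repressor gene (-1.32 ± 0.29, edgeR adjusted p = 0.00456), and P2ry14, a purinergic receptor gene (-0.84 ± 0.22, adjusted p = 0.0123). In FLASH against control 7 fell, 0 rose and 8 did not pass (46.7% passed, against 37.7% of all genes with 21.0% as lower, median -0.94). The subunits of the nitric oxide receptor guanylate cyclase were among them. Gucy1b1 fell by 1.45 ± 0.21 (edgeR adjusted p = 3.74e-05), to 5.51 ± 0.788 CPM in FLASH against 15.0 ± 4.10 in control, and Gucy1a1 by 1.47 ± 0.32 (adjusted p = 0.00147). Smooth muscle also expresses both subunits. In FLASH against CONV Gucy1b1 (-0.95 ± 0.22, edgeR adjusted p = 0.00572) and Ndufa4l2, a hypoxia-induced mitochondrial gene (-0.94 ± 0.32, adjusted p = 0.0436), were lower in FLASH.

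Of 18 genes for signals between endothelium and pericytes, 2 fell and 1 rose in CONV against control (16.7% passed, against 22.2% of all genes), and 7 fell and 1 rose in FLASH against control (44.4%, against 37.7%). Both directions are counted in these shares. Of all genes, 12.0% were called lower in CONV against control and 21.0% in FLASH against control. Angpt1, the Tie2 ligand that mural cells release, fell to 0.183 ± 0.187 CPM in FLASH and 0.410 ± 0.229 CPM in CONV, against 1.22 ± 0.269 CPM in control (log2 fold changes -2.75 ± 0.48 and -1.54 ± 0.49, edgeR adjusted p = 0.000244 and 0.0337). Its lowest FLASH value, 0.0355 CPM, was close to the detection limit, so the size of the FLASH fold is uncertain. Pdgfd, another ligand of the receptor encoded by Pdgfrb, fell by 1.43 ± 0.26 in FLASH against control (edgeR adjusted p = 0.000387). Pdgfa, whose product acts mainly on the related receptor PDGFRA, rose by 0.52 ± 0.12 in FLASH and by 0.47 ± 0.13 in CONV, each against control. Tgfb1 fell by 0.92 ± 0.24 in CONV against control. In FLASH against CONV 3 were higher and 1 lower (22.2%, against 19.8% of all genes), with Angpt2, the vessel-destabilising ligand of endothelium, at 3.57 ± 1.12 CPM in FLASH against 1.95 ± 0.154 CPM in CONV (0.87 ± 0.25, edgeR adjusted p = 0.0209), Tgfbr2 at 0.88 ± 0.29 and Pdgfd at -0.86 ± 0.28.

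Notch ligands, receptors and effectors other than Notch3 were read from 13 genes, Heyl among them again. The shares that passed were 38.5% in CONV against control, 23.1% in FLASH against control and 15.4% in FLASH against CONV, against 22.2, 37.7 and 19.8% of all genes. In CONV against control 5 fell, including Rbpj, the DNA-binding effector (-0.83 ± 0.19), and the receptor gene Notch2 (-1.78 ± 0.47). In FLASH against control 2 fell, Heyl (-0.94 ± 0.26) and Hes1 (-0.43 ± 0.12), and the ligand gene Dll1 rose by 0.56 ± 0.19 (edgeR adjusted p = 0.0235). Dll1 and Rbpj were higher in FLASH than in CONV (0.58 ± 0.20 and 0.53 ± 0.18, adjusted p = 0.0466 and 0.0461). Epithelial cells also use these genes.

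Of the receptors and regulators that set mural tone, 12 of 15 were tested, with 1 higher and 2 lower in CONV against control, 1 and 1 in FLASH against control, and 3 and 1 in FLASH against CONV. The shares that passed were 25.0, 16.7 and 33.3%, against 22.2, 37.7 and 19.8% of all genes, so in FLASH against control these genes passed at a lower share than all genes. The angiotensin receptor gene Agtr1a was at 2.73 ± 1.02 CPM in FLASH and 0.773 ± 0.342 CPM in CONV, against 1.76 ± 0.535 CPM in control. It fell in CONV against control (-1.20 ± 0.35, edgeR adjusted p = 0.0209) and was higher in FLASH than in CONV (1.83 ± 0.35, adjusted p = 0.00187). The vasopressin receptor gene Avpr1a was also higher in FLASH than in CONV (1.86 ± 0.51), and Gna13 rose after both dose rates, by 1.16 ± 0.14 in FLASH and 0.46 ± 0.15 in CONV. P2rx1, an ATP-gated channel gene of smooth muscle, fell by 1.37 ± 0.23 in FLASH against control, and the endothelin receptor gene Ednrb fell in CONV against control (-1.12 ± 0.34).

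Matrix genes of the vessel's basement membrane and of known binding partners of NG2 and CD146 (collagen VI and laminin α4) were read from 12 genes. In FLASH against control 5 fell and 0 rose (41.7%, against 21.0% of all genes called lower). In CONV against control 9 fell and 0 rose (75.0%, against 12.0% of all genes called lower). Summed over the list, the level was 173 to 748 CPM in FLASH, 79.5 to 332 in CONV and 130 to 1350 in control. The lowest sum of each group was in FLASH 1, CONV 6 and control 6, the libraries with the most negative length slopes. The part of the length slope in these falls was not tested. Col6a3 was at 3.42 ± 2.11 CPM in FLASH and 6.77 ± 4.39 CPM in CONV, against 34.4 ± 21.8 CPM in control (-3.33 ± 0.52 and -2.34 ± 0.57, edgeR adjusted p = 9.07e-05 and 0.00800). Hspg2, perlecan, fell too (-1.82 ± 0.48 in FLASH and -1.92 ± 0.55 in CONV). Lama5, which epithelium also makes, was higher in FLASH than in CONV (1.42 ± 0.39, edgeR adjusted p = 0.0162). These genes are also fibroblast genes, and of 12 fibroblast genes, Col6a3 included, 7 fell and 2 rose in FLASH against control. Of the relatives of Higd1b, Higd1a rose by 1.85 ± 0.31 in FLASH and by 1.25 ± 0.33 in CONV against control (edgeR adjusted p = 0.000194 and 0.0125), and Higd2a passed in no comparison. The summed level of both was highest, within each group, in FLASH 1 (269 CPM), CONV 6 (244 CPM) and control 6 (178 CPM). These libraries had the most negative length slopes, and the part of that slope in the Higd1a values was not tested.

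**Figure D5:**
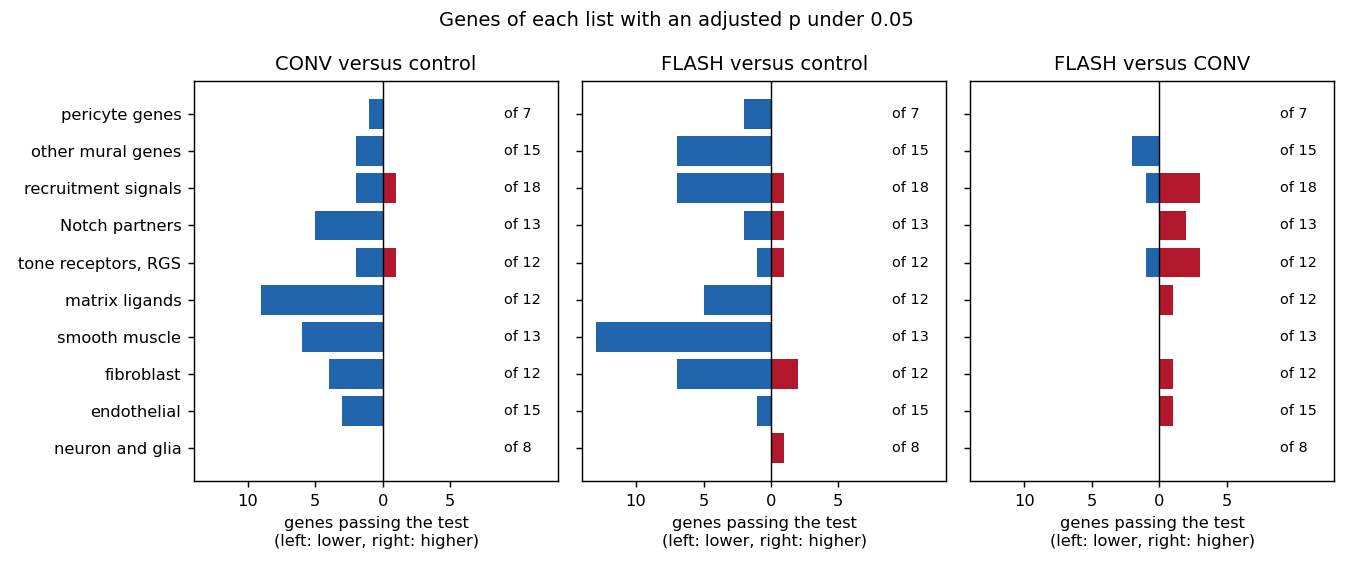
Number of genes with an edgeR adjusted p under 0.05 in each list, with lower genes to the left in blue, higher genes to the right in red and the number tested at the right edge. In FLASH against control the bar of smooth muscle genes reaches 13 of 13, that of other mural genes 7 of 15 and that of the pericyte genes 2 of 7.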

How the data were processed

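Groups and library numbers came from the labels, and the tables' columns were matched to samples by title. The deposited table of expected counts holds estimated reads per Ensembl gene. Per the labels, the authors used STAR, Salmon, edgeR 3.40.2 and limma 3.54.2 on mm10, in roles not given in the sources used here, on single-end reads of stranded mRNA libraries. A second deposited table holds log2 values that the authors normalized, used here for 1 alternative. Of the nonzero expected counts 75% were whole, and all were rounded. GENCODE M21 gave a symbol for 54495 of 54532 gene IDs, and those without one held 0.0018% of counts.

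The main test was the quasi-likelihood test of edgeR 4.0.16 (R 4.3.3) fitted to the 18 libraries together, after filterByExpr and TMM scaling. P-values of the 16257 genes kept were adjusted by Benjamini-Hochberg, with 0.05 as threshold. An SE was the size of a log2 fold change divided by the root of its F value. Alternatives were tried one at a time, among them a spline offset (4 degrees of freedom) for length and GC content. DESeq2 1.42.0 also brought its own size factors, and limma-trend (limma 3.58.1) ran on the authors' log2 values, so both differ from the edgeR fit in more than the test. Log2 CPM for correlations used a prior count of 2. The members and lists were chosen with earlier results of these data known. Named were all members, up to 3 genes per list and comparison with the smallest p, the 3 most similar genes per member, and Acta2, Myh11, Pecam1, Cdh5 and Col1a1 as markers. A further marker of that rule is not reported here. On simulated data with 200 changed genes, CONV against control (15999 genes) found 27% of 2-fold changes, FLASH against control (15982) 48% and FLASH against CONV (15985) 46%. For 4-fold changes these shares were 84, 84 and 85%, and 4.13, 6.43 and 5.11% of calls were false. Genes were drawn independently of each other, with no shared length slope or composition and far fewer changed genes than were called here. The simulated shares therefore need not hold for the real libraries. No pair of libraries within a group agreed within sampling noise (lowest chi-square per degree of freedom 24.43).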

Additional observations from a re-analysis of the deposited data

Results flagged for a closer look

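The Notch3 level of control 2, 16.8 CPM, lay far from those of the other 5 control libraries, which were between 0.511 and 6.19 CPM. It was the 1 value that stood apart in this way among 21 sets of gene and group checked, where chance alone would mark about 1 set in 20. Control 2 also had the steepest positive slope on transcript length (0.32) and the highest summed endothelial level (911 CPM, against 112 to 347 in the other controls). The part of either in the Notch3 value was not tested.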

How the results depend on the processing

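Of 27 alternatives, those with a changed count of called members are given here. In CONV against control, where 1 member passed, 0 passed with no filter but 1 count, with only the 2 groups compared, with the replicate block or with the length and GC offset, 2 passed with DESeq2 and 3 without control 6, CONV 6 and FLASH 1. In FLASH against control, where 2 passed, 4 passed with library totals or without those 3 libraries, 3 with DESeq2, with only the 2 groups compared or with the length and GC offset, 1 with no filter but 1 count, and 0 with limma-trend on the authors' log2 values or the replicate block. In FLASH against CONV, 1 passed without those 3 libraries. Leaving out each library gave 0 to 3, 0 to 4 and 0 to 0 called members in the 3 comparisons, and 1869 to 6493, 5074 to 7164 and 2171 to 3993 genes called in all, against 3615, 6135 and 3217.

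Library numbers did not pair the libraries (correlations of same-numbered deviations from -0.27 to 0.606, own number best in 4 of 26 cases). With the number as a replicate block, FLASH against CONV gave 1569 genes and Cspg4 and Abcc9 no longer passed (edgeR adjusted p = 0.0867 for Cspg4 in CONV, 0.116 for Cspg4 and 0.174 for Abcc9 in FLASH). Library totals moved the median over all genes, in log2 fold change, to -0.25, -0.44 and -0.18 and the share of higher calls to 24.2, 17.4 and 24.4%, against 46.0, 44.3 and 49.9%.

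Signs that turned all belonged to values that did not pass. In CONV against control Kcnj8 was at -0.061 with library totals and between -0.028 and 0.349 when each library was left out, below 0 without CONV 2 or CONV 3. In FLASH against control Pdgfrb lay between -0.531 (without control 6) and 0.035 (without control 2). In FLASH against CONV Cspg4 was at -0.015 with library totals, -0.245 with the length and GC offset and between -0.091 (without FLASH 7) and 0.417 (without CONV 3) when each library was left out, also below 0 without CONV 6. Notch3 was at -0.21 with that offset. Mcam was at -0.145 with library totals, -0.07 without the 3 libraries and between -0.099 (without CONV 6) and 0.171 (without CONV 3), also below 0 without CONV 7, FLASH 5 or FLASH 7. The causes were not tested.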
